A study of Mus musculus with 15 samples.

Results

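The vomeronasal type 2 receptor genes (Vmn2r, V2R) were followed through spermatogenesis in single-cell RNA-seq of whole mouse testis. All rows of the gene lists whose symbol begins with Vmn2r and does not contain -ps were taken, which gave 122 of 32285 genes. Of 124 Vmn2r rows, 2 pseudogenes were left out. Attention to this family in spermatocytes, and to Vmn2r60 in particular, was chosen by earlier results for JQ1-treated testes, so the JQ1 values below are a description without a test.

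The 15 libraries came from DBA/2J males, with 1 testis of 1 mouse in each library and 3 libraries in each of 5 groups. T mice received JQ1, a small-molecule inhibitor of BET bromodomain proteins including the testis-specific BRDT, at 50 mg/kg daily for 3 weeks and were 10 weeks old. VC-T mice of the same age received the vehicle. R mice were taken 6 weeks after the same treatment ended, at 16 weeks, with age-matched vehicle mice as VC-R. UC mice were untreated and 15 weeks old. JQ1 was injected into the whole animal and inhibits BET proteins in every cell type, and the groups were not all of one age. Library VC-T 1 had fewer than 10 spermatozoa-like cells, as did the T libraries. The study treated it as an outlier, and it was left out of the fits here except where stated.

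V2Rs are class C G protein-coupled receptors with a large extracellular ligand-binding domain, related to the metabotropic glutamate and calcium-sensing receptors. They are best known from the sensory neurons of the basal layer of the vomeronasal organ, which detect peptide and protein pheromones. There they act through the G protein subunit Gnao1 and the channel Trpc2. Each neuron carries a single variable V2R together with a broadly shared member of the group Vmn2r1 to Vmn2r7. Testis transcribes a large part of the genome, and pachytene spermatocytes and round spermatids in particular contain transcripts of genes known from other tissues.

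Of the 122 genes, 121 had a position in GENCODE M21 (GRCm38, the build of the files). They lay in clusters, with 52 genes on chromosome 7 and 31 on chromosome 17. Vmn2r60 (ENSMUSG00000090619) spanned chr7:42107770-42196208 on the plus strand. A processed pseudogene, Gm2308, lay within this span on the opposite strand. The counted genes within 100 kb of it were the members Vmn2r59 and Vmn2r61, and the other annotated neighbours were pseudogenes. Vmn2r68 at chr7:85221138-85237783 (minus strand), Vmn2r69 at chr7:85393826-85415920 (minus) and Vmn2r71 at chr7:85563087-85624680 (plus) shared a second cluster on chromosome 7. Vmn2r7 lay at chr3:64685044-64844765 on the minus strand.

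The RefSeq start-site regions of 3 of these genes are shown because Vmn2r60 and Vmn2r68 were detected mainly in spermatocytes while Vmn2r71, a close relative of Vmn2r68, was detected mainly in spermatids. Each covers 250 bases before to 50 bases after the RefSeq start (GRCm38.p6), 5′ to 3′ on the strand of the gene. Capitals mark the longest run common to all 3.
Vmn2r60 (chr7:42116221-42116520, plus): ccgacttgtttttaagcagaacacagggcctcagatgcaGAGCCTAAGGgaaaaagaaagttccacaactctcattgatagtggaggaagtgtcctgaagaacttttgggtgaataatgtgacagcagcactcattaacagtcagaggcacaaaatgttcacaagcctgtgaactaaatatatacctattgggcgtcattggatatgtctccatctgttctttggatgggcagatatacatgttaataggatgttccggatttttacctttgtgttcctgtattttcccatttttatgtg
Vmn2r68 (chr7:85237655-85237954, minus): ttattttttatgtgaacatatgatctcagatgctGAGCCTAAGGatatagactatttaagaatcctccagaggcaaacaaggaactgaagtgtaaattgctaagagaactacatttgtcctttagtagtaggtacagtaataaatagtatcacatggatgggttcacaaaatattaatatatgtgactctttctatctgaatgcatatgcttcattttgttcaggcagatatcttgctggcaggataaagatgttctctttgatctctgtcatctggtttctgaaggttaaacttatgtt
Vmn2r71 (chr7:85615212-85615511, plus): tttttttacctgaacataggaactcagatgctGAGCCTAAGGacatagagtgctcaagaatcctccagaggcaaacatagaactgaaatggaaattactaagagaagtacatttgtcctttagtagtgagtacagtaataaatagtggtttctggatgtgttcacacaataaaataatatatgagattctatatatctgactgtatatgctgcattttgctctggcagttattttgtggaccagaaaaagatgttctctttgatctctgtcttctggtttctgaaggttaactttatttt
In a global alignment Vmn2r68 and Vmn2r71 were 83.9% identical over these windows, whereas Vmn2r60 was 58.8% identical to Vmn2r68 and 56.5% to Vmn2r71. The 10-base run GAGCCTAAGG was present on either strand in 10 of 115 member windows (8.7%) and in 0.113% of all 32851 RefSeq windows of the same length. The run was chosen because these 3 member windows share it, so its higher share among members cannot be read as a result. The motif CAACTG, a core recognised by MYB factors, was found in 30 of the 115 member windows (26.1%) and in 13.7% of all windows, but not in these 3. The cyclic AMP response element TGACGTCA was in 1.74% of member windows and 1.79% of all windows, and in none of the 3. The RefSeq starts of Vmn2r60 and Vmn2r71 fell inside the GENCODE spans of the genes, so these windows need not be the start used in testis.

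After filtering, 72362 cells remained of 101610 deposited barcodes, with a median of 2446 to 4222 UMIs per cell in the libraries. Any pair of libraries had at most 25 kept barcodes in common. Cells were assigned from markers to 13 classes and stages, except 5338 cells in 4 clusters left unnamed, and the Vmn2r genes were not used for clustering. Levels are UMIs summed over the cells of a class in a library, divided by all UMIs of those cells and given as CPM. A UMI tags 1 transcript molecule at its 3′ end, so CPM is not divided by gene length. In summed cells, fewer cells with a transcript and fewer transcripts per cell cannot be told apart. Kept cells held 39542 UMIs of the family. In all, 19 members had no UMI, 82 had fewer than 50 and 40 had at least 50. The members next to this line were Vmn2r109 with 55 and Vmn2r90 with 48 UMIs. The 10 members with most UMIs carried 83.7% of the total.

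The family was not mainly a spermatocyte family by these counts. Spermatocyte-like cells, 15499 in number, contributed 31.5% of all UMIs but 16.3% of the family's. Summed over the 122 genes, the level was 55.4 CPM in spermatocyte-like cells, 130 CPM in spermatid-like cells and 88.7 CPM in spermatozoa-like cells. It was 23.5 CPM in spermatogonia-like cells and 23.9 CPM in macrophage-like cells, where V2Rs are not known to act. The macrophage value rested on 17 UMIs of the family. Sertoli-like cells were at 56.1 CPM (8.79 to 94 CPM by library), close to the spermatocyte-like level, and Leydig-like cells at 31.9 CPM. Within meiosis the sum was 35.6 CPM in leptotene and zygotene, 36.1 CPM in a cluster between zygotene and mid-pachytene, 63.3 CPM in mid-pachytene, 56.4 CPM in late pachytene and 38 CPM in diplotene and dividing cells. Group means were higher in mid-pachytene than in late pachytene in T, R and UC. The order was reversed in VC-T (46 and 52.4 CPM) and in VC-R (54.2 and 61.4 CPM). Of the 4659 late pachytene cells, 4479 lay in 2 clusters whose late pachytene and diplotene scores were tied, so that stage also holds later cells. By library, mid-pachytene sums ran from 44.6 to 91.5 CPM and leptotene and zygotene sums from 0 to 95.8 CPM, so the early stage was measured poorly. Of the 40 members with at least 50 UMIs, 22 were highest in spermatid-like cells, 5 in mid-pachytene, 5 in late pachytene and 4 in leptotene and zygotene, when germ-cell classes outside the low-UMI clusters described next were compared.

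**Figure D1:**
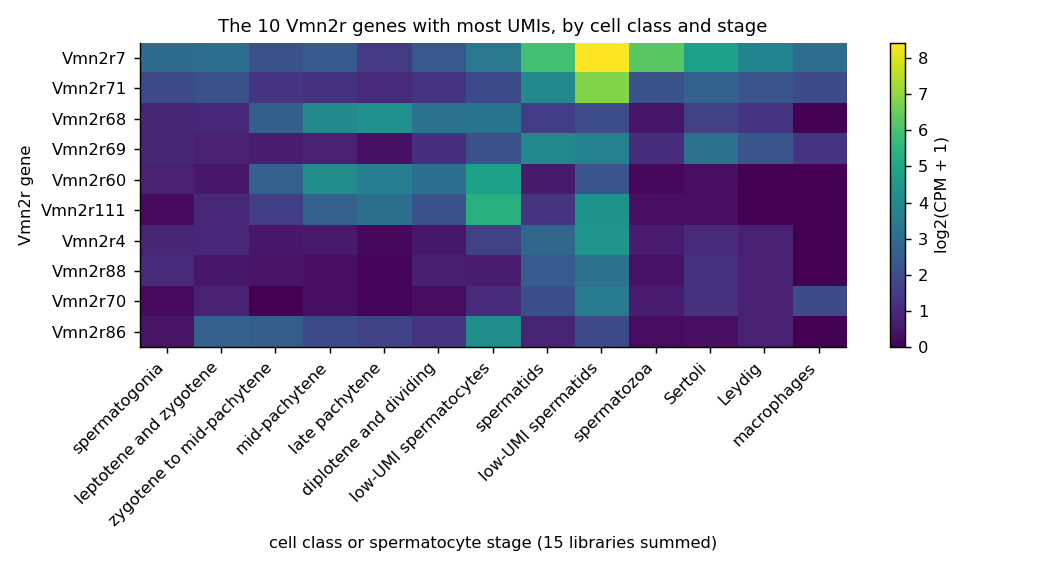
Level of the 10 Vmn2r genes with most UMIs (rows, by total UMIs) in each cell class or spermatocyte stage (columns), as log2(CPM + 1) with the 15 libraries summed. Vmn2r60 and Vmn2r68 are brightest from mid-pachytene to late pachytene and in low-UMI spermatocytes, whereas Vmn2r7, Vmn2r71 and Vmn2r69 are brightest in the haploid columns. Vmn2r111 is brightest in low-UMI spermatocytes and then in low-UMI spermatids, followed by late pachytene.

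A set of 4 clusters held cells with few UMIs, a low share of ribosomal protein transcripts and a high share of UMIs from genes over 100 kb long. The 6680 low-UMI spermatid-like cells had a median of 1596 UMIs and 663 CPM of Vmn2r transcripts, and 77.4% of them came from R libraries. They held 3.51% of all UMIs and 21.8% of the family's. The 928 low-UMI spermatocyte-like cells had a median of 1572 UMIs and 144 CPM, and 59.2% came from R libraries. The high level was not limited to R: in low-UMI spermatids the sum was 598 to 867 CPM in the 14 libraries with at least 10 such cells. The part that RNA quality or free nuclei played in it was not tested. Since most of these cells came from R, the counts of members called in R and the main values below are given with and without them.

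At least 1 UMI was found in spermatocyte-like cells for 81 of the 122 members, but few members had many. Vmn2r60 had 1385 of its 1512 UMIs in spermatocyte-like cells and Vmn2r68 had 1665 of 1994. Vmn2r60 was at 0.472 CPM in leptotene and zygotene, 5.01 CPM in the zygotene to mid-pachytene cluster and 16.6 CPM in mid-pachytene, and then at 11.4 CPM in late pachytene, 7.48 CPM in diplotene and dividing cells and 0.517 CPM in spermatids, over all libraries summed. Its highest level, 26.9 CPM, was in the low-UMI spermatocytes. The T libraries, with the high values given below, are part of these sums. In UC 1 to 3, mid-pachytene Vmn2r60 was at 6.54, 5.88 and 3.71 CPM, beside 16.7 ± 7.72 CPM (SD, n = 3) for Vmn2r68. Vmn2r68 was at 14.8 CPM in mid-pachytene and reached 18.2 CPM in late pachytene. Vmn2r111 was at 4.98 CPM in mid-pachytene and 7.56 CPM in late pachytene. It was at 39 CPM in low-UMI spermatocytes and 18.8 CPM in low-UMI spermatids. Vmn2r86 had another order, with 4.95 CPM in leptotene and zygotene, 4.54 CPM in the next cluster and 2.31 CPM in late pachytene. The first of these stages was measured poorly, and the highest level of Vmn2r86, 17 CPM, was in low-UMI spermatocytes. Vmn2r29 was at 2.36 CPM in leptotene and zygotene, 3.61 CPM in the next cluster and 1.96 CPM in late pachytene. Vmn2r61, the neighbour of Vmn2r60 on the same strand, was at 2.04 CPM in mid-pachytene and 2.11 CPM in late pachytene. The other neighbour, Vmn2r59, was at 0.407 CPM in mid-pachytene. Vmn2r67, next to Vmn2r68, was at 0.233 CPM there. These members beside Vmn2r60 and Vmn2r68 were thus at much lower counts.

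Reads of near-identical family members can be assigned to the wrong gene or lost. In the last 500 bases of the longest GENCODE transcript, none of the 90-base windows of Vmn2r60, Vmn2r68, Vmn2r69, Vmn2r86, Vmn2r88 or Vmn2r111 occurred in a transcript of another Vmn2r gene. For Vmn2r7, Vmn2r4 and Vmn2r71, 15.3%, 14.4% and 5.6% of these windows did, as did 20.9% for Vmn2r61, and their counts are less certain. Vmn2r88 lay inside Gm7247 on the same strand, which was at 38.6 CPM in spermatids beside 4.37 CPM for Vmn2r88, and the UMIs of this pair may not be fully separated. Vmn2r70 overlapped Vmn2r71 on the opposite strand, and the strand setting of the counting was not given in the sources used here.

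Per cell the signal was sparse. A Vmn2r60 UMI was found in 421 of 4839 mid-pachytene cells (8.7%, exact 95% interval 7.92 to 9.53%) and in 457 of 4659 late pachytene cells (9.81%, 8.97 to 10.7%), with median depths of 4744 and 7523 UMIs. In Sertoli-like cells, which should lack the gene, it was found in 2 of 3709 cells (0.0539%, median 1421 UMIs), and in 0 of 285 macrophage-like cells and 0 of 237 Leydig-like cells, which allow shares up to 1.29% and 1.54% (exact 95% intervals). Intervals cover counting error only. Of the 421 mid-pachytene cells with a Vmn2r60 UMI, 285 were T cells. The mid-pachytene share was 12.4% in T, 10.8% in R, 7.51% in VC-R, 4.08% in UC and 2.35% in VC-T, at unlike depths. Of the 1041 spermatocyte-like cells with a Vmn2r60 UMI, 814 had a single one and 17 had 5 or more, up to 10. At least 1 UMI of any member was found in 4202 spermatocyte-like cells, of which 1034 (24.6%) had UMIs of 2 or more members, up to 6. UMIs of several members in 1 cell were also common in spermatids, in 2001 of 6287 cells with any (31.8%). At these counts a cell with a single detected member cannot be taken to express only that one.

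Vmn2r60 differed between the groups in spermatocyte-like cells, and its values in T against the controls are those on which the gene was singled out. It was at 30.4, 25.9 and 29.4 CPM in T 1 to 3, from 402, 303 and 147 UMIs. In the vehicle libraries VC-T 1 to 3 it was at 6.76, 7.13 and 4.81 CPM. Untreated UC 1 to 3 had 4.37, 5.58 and 3.21 CPM, from 14, 16 and 15 UMIs. After recovery, R 1 to 3 had 6.94, 6.33 and 4.61 CPM, and their vehicle libraries VC-R 1 to 3 had 9.21, 9.89 and 8.68 CPM. Every T library was above every library of the other groups. The T mean was 28.6 ± 2.4 CPM. The vehicle means were 6.23 ± 1.25 CPM for VC-T and 9.26 ± 0.605 CPM for VC-R. The R libraries averaged 5.96 ± 1.21 CPM and the untreated ones 4.39 ± 1.18 CPM (SD, n = 3 in every group).

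In the edgeR fit Vmn2r60 was 2.68 ± 0.19 (SE) log2 units higher in T than in UC and 2.14 ± 0.19 higher than in VC-T 2 and 3. With all 3 VC-T libraries the latter was 2.11 ± 0.16. In mid-pachytene cells alone the differences were 2.68 ± 0.26 and 2.30 ± 0.36. Without the low-UMI cluster the T against UC difference was 3.00 ± 0.22. Of the 7 members that passed the filter on low counts for T against UC, Vmn2r60 was the only one over 2-fold higher, a size passed by 3.05% of all 12216 genes tested. Against VC-T, Vmn2r60 and Vmn2r71 of 10 members tested were over 2-fold higher, beside 4.65% of 13124 genes. The value for Vmn2r71 was 1.38 ± 0.72, from levels of 0.458 to 2.5 CPM, and it was 0.72 ± 0.57 with all 3 VC-T libraries. The selection of Vmn2r60 on this contrast leaves nothing to be read from its place above that share.

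The rest of the family did not share the difference in sum. Without Vmn2r60 the summed level in spermatocyte-like cells was 46.3, 38.9 and 41.8 CPM in T and 46.5, 38.3 and 41.8 CPM in UC. The means were 42.3 ± 3.69 and 42.2 ± 4.09 CPM (SD, n = 3 each), and the range over all 15 libraries was 37.8 to 47.3 CPM. Vmn2r68, present in the same stages, was at 9.99, 13.5 and 13 CPM in T and at 18.1, 12.2 and 11.6 CPM in UC, so the groups overlapped, with a difference of -0.26 ± 0.21 log2 units. Vmn2r111 was at 5, 4.44 and 4.6 CPM in T, below the 5.49 to 6.24 CPM of VC-T and the 6.97 to 8.35 CPM of UC without overlap. Its difference from UC was -0.81 ± 0.22 log2 units, less than 2-fold. Vmn2r61, next to Vmn2r60, was at 3.26, 1.54 and 2.4 CPM in T and 1.56, 1.39 and 2.78 CPM in UC, which overlapped.

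**Figure D2:**
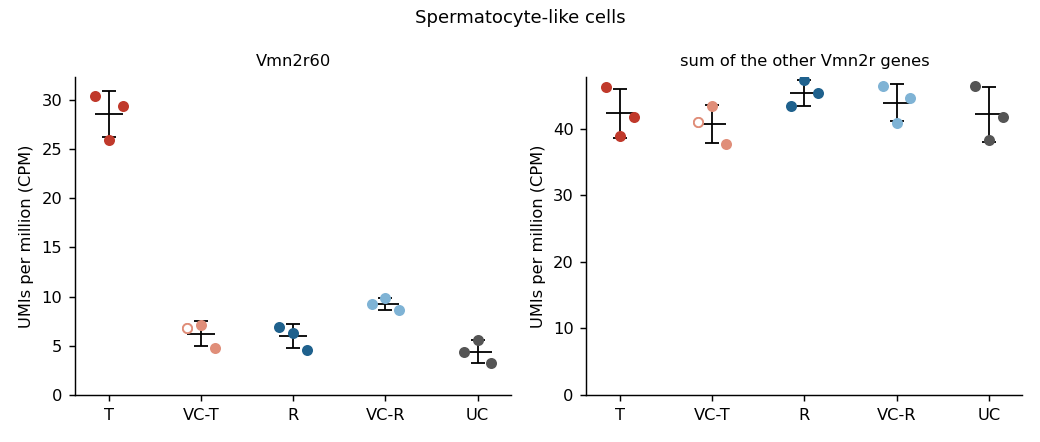
CPM in spermatocyte-like cells for each library (points, 3 per group, with mean and SD as bars) of Vmn2r60 on the left and of the sum of the other 121 Vmn2r genes on the right. The open point is VC-T 1. The 3 T libraries lie between 25.9 and 30.4 CPM for Vmn2r60, above all others, while the sums lie between 37.8 and 47.3 CPM in every group.

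The difference in Vmn2r60 was present at each pachytene stage. In mid-pachytene the T libraries had 40.5, 33.7 and 36 CPM, R had 7.71, 6.27 and 6.34 CPM and UC had 6.54, 5.88 and 3.71 CPM. VC-T was uneven at 5.4, 11.1 and 1.78 CPM, from 16, 14 and 2 UMIs. In late pachytene T had 33.3, 23.4 and 30.4 CPM against 2.86, 4.16 and 2.02 CPM in UC. One small mid-pachytene cluster of 217 cells was led by Vmn2r60 and held 5.56% of T and 3.51% of other mid-pachytene cells. It contained 6.47% of the mid-pachytene Vmn2r60 UMIs, and without it the T values were 41.7, 34.5 and 33.5 CPM. In mid-pachytene cells thinned to 2000 UMIs, the expected share of cells with a Vmn2r60 UMI was 6.04, 5.63 and 6.08% in T and 0.263 to 1.97% in the libraries of the other groups. Unthinned shares were 14, 12.4 and 10% in T and 1.46 to 18.5% elsewhere. Median depths were 3136 to 5202 UMIs in T, 2844 in VC-T 1 and 6043 to 29353 in all other libraries. In late pachytene cells thinned in the same way, the shares were 6.17, 4.56 and 5.75% in T. They were 1.31 to 1.88% in VC-T, 1.62 to 2.04% in VC-R, 0.897 to 1.09% in R and 0.296 to 0.62% in UC.

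**Figure D3:**
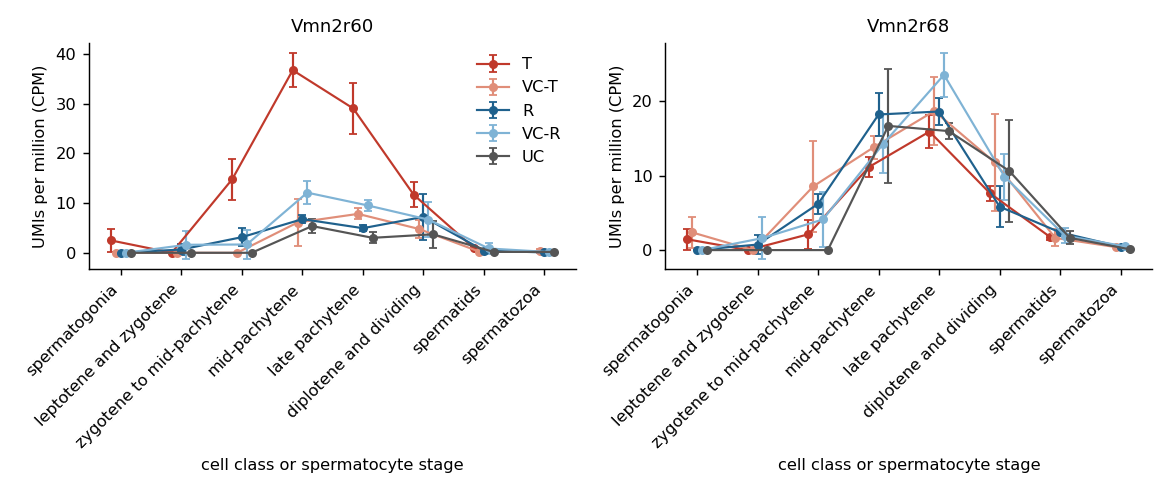
Mean CPM (points) with SD (bars) over the libraries of each group with at least 10 cells, along the cell classes and spermatocyte stages, for Vmn2r60 and Vmn2r68. Low-UMI cells are not drawn. Among the stages drawn, Vmn2r60 in T is highest in mid-pachytene, whereas the Vmn2r68 bars of the 5 groups overlap at most stages.

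Transcripts of late haploid cells also differed with treatment. Their level in spermatocyte-like cells was summed over 8 genes (Prm1, Prm2, Tnp1, Tnp2, Smcp, Oaz3, Odf1 and Gapdhs). The sum was 210 to 633 CPM in T and 3606 to 10535 CPM in the other groups except VC-T 1. VC-T 1 had 474 CPM of them and 6.76 CPM of Vmn2r60. The part of late haploid RNA in the difference was not tested. Brdt, the germ-cell BET gene, was at 259, 249 and 268 CPM in T and 224, 231 and 216 CPM in UC. Mybl1, a transcription factor of pachytene cells, was at 113 to 125 CPM in T and 120 to 128 CPM in UC.

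The comparisons of R, VC-R and UC differ from the contrasts with T that drew attention to Vmn2r60, and were tested. The UC libraries were also one side of T against UC, so for Vmn2r60 the tests against UC reuse values from that choice, and only R against VC-R shares no library with it. They ask whether the family still differed 6 weeks after JQ1. No member was called at an adjusted p under 0.05 and a difference over 2-fold in any of them by edgeR's quasi-likelihood test. Of the 9 members that passed the filter in R against UC none was called, beside 1.25% of 13446 genes, and none reached an unadjusted p under 0.05. In R against VC-R none of 9 was called, beside 0% of 13577 genes, and 1 had an unadjusted p under 0.05. In VC-R against UC none of 6 was called, beside 0% of 11437 genes, and again 1 had an unadjusted p under 0.05. DESeq2 called no member in the 3 comparisons. Over all genes it called 94 higher and 7 lower of 13446 in R against UC. It called 1 of 13577 in R against VC-R and 0 of 11437 in VC-R against UC. Without the low-UMI spermatocyte cluster 7, 8 and 4 members were tested and none was called. Over all genes 88 were then called higher and 9 lower of 13259 in R against UC. None of 13417 and none of 11369 were called in the other 2 comparisons. With so few genes called, none among so few members says nothing about the family.

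That single gene was Vmn2r60 in both cases. Against UC it was 0.40 ± 0.27 log2 units higher in R (edgeR adjusted p = 0.45). Against VC-R it was 0.75 lower, a log2 difference of -0.75 ± 0.21 in R (edgeR unadjusted p = 0.005, adjusted p = 0.48), and all 3 R libraries were below all 3 VC-R libraries. VC-R was 1.14 ± 0.27 log2 units above UC (edgeR unadjusted p = 0.0012, adjusted p = 0.69), again without overlap. Without the low-UMI spermatocyte cluster Vmn2r60 was at 5.34 ± 0.824 CPM in R, 9.14 ± 0.454 CPM in VC-R and 3.54 ± 1.23 CPM in UC (SD, n = 3 each). The log2 differences were then 0.59 ± 0.28 for R against UC, -0.87 ± 0.20 for R against VC-R and 1.43 ± 0.30 for VC-R against UC (edgeR adjusted p = 0.29, 0.79 and 0.40). Over the alternative settings the adjusted p ran from 0.051 to 0.98 for R against VC-R, from 0.11 to 1 for VC-R against UC and from 0.24 to 0.84 for R against UC. The vehicle libraries of the recovery time thus had the highest values outside T, and this difference did not pass the adjustment over all genes. VC-R rested on 51, 51 and 22 Vmn2r60 UMIs and UC on 14, 16 and 15, which limits what these tests can resolve.

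The other members tested differed little. Vmn2r68 was at 15.5, 13.5 and 16.3 CPM in R, a log2 difference of 0.10 ± 0.17 from UC (edgeR adjusted p = 0.81) and -0.19 ± 0.15 from VC-R (adjusted p = 0.73). Vmn2r111 was at 7.34, 7.16 and 6.36 CPM in R, -0.24 ± 0.18 from UC (adjusted p = 0.51). Vmn2r86 was at 2.52, 2.7 and 2.94 CPM in R, -0.19 ± 0.28 from UC (adjusted p = 0.79). Vmn2r100 had the largest difference of the 9 from UC, 0.70 ± 0.51 (edgeR adjusted p = 0.49), which did not pass. Without the low-UMI cluster the differences from UC were 0.08 ± 0.16 for Vmn2r68, -0.28 ± 0.20 for Vmn2r111 and -0.11 ± 0.31 for Vmn2r86 (edgeR adjusted p = 0.86, 0.51 and 0.93), and Vmn2r100 did not pass the filter. One library decided a call: without VC-R 1, Vmn2r7 was called higher in R than in VC-R, at 1.97 ± 0.58 (edgeR adjusted p = 0.042), and 612 genes (4.17%) were called in place of 0. With all libraries it was 0.76 ± 0.51 (adjusted p = 0.67).

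**Figure D4:**
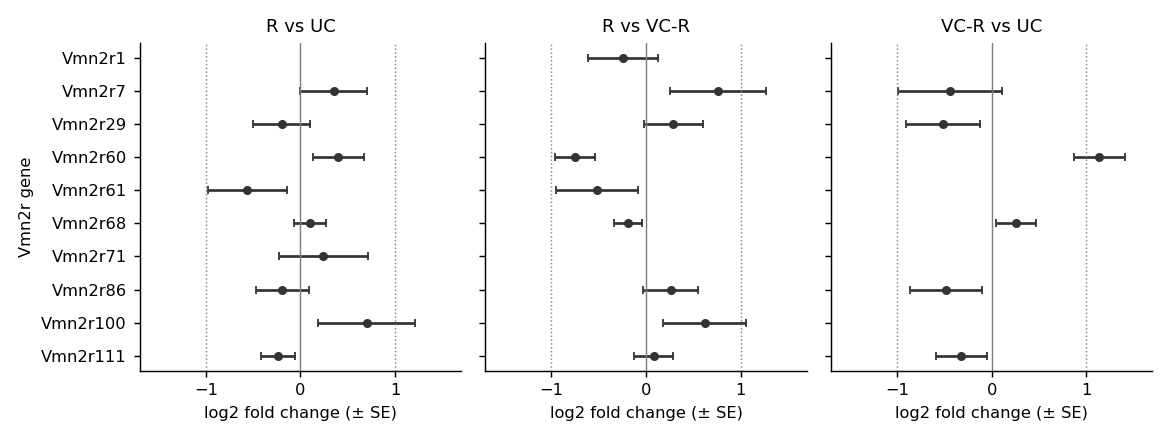
Log2 fold change with SE for each Vmn2r gene that passed the filter in the 3 tested comparisons of spermatocyte-like cells. Dotted lines mark a 2-fold difference. Only Vmn2r60 in VC-R against UC lies past a dotted line, and its adjusted p is 0.69.

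The 2 members with most UMIs were found mainly in haploid cells. Vmn2r7, one of the broadly shared V2Rs, had 20382 UMIs and was at 59.5 CPM in spermatid-like cells, 75.9 CPM in spermatozoa-like cells and 4.19 CPM in mid-pachytene. Its GENCODE span of 160 kb was overlapped on the same strand by the transcript Gm26939, which was not among the counted genes. Vmn2r71 was at 14.8 CPM in spermatids and 3.44 CPM in spermatozoa, and Vmn2r69 was at 14.5 and 1.17 CPM. Vmn2r7 was thus kept at the later stage while the other 2 were not. Vmn2r4 (5.8 CPM), Vmn2r88 (4.37 CPM), Vmn2r70 (3.03 CPM) and Vmn2r118 (2.23 CPM) had the same class as their highest outside the low-UMI clusters.

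In spermatid-like cells outside the low-UMI clusters Vmn2r7 was at 46.7, 43.6 and 41.1 CPM in T, below all other libraries (54 to 74.1 CPM). The log2 difference was -0.91 ± 0.11 from UC and -1.09 ± 0.12 from VC-T 2 and 3. Vmn2r71 was at 11.3, 7.94 and 8.78 CPM in T and 17.1, 15.2 and 15.5 CPM in UC, a difference of -1.02 ± 0.18. The value in VC-T 1 lay within the T range. Vmn2r69 was at 11.7 ± 1.15 CPM (SD, n = 3) in T, with 12.8 CPM as the highest library, and at 18, 19.4 and 16.4 CPM in UC, a difference of -0.89 ± 0.16. R at 12.6 ± 1.22 CPM and VC-R at 14.8 ± 3.74 CPM (SD, n = 3 each) overlapped T for this gene. Of 8 members tested against UC, Vmn2r71 and Vmn2r118 were over 2-fold lower, as were 15.9% of 13234 genes. With 1 library left out, the number of members past 2-fold in either direction ranged from 0 to 4. Vmn2r88, whose UMIs may not be separated from those of Gm7247, was at 6.82, 6.59 and 7.37 CPM in T, above every other library (2.18 to 5.21 CPM), and 0.94 ± 0.25 log2 units above UC. Against VC-T, Vmn2r7, Vmn2r71 and Vmn2r118 of 10 members were over 2-fold lower in T, beside 19% of 14364 genes.

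The T libraries had fewer than 10 spermatozoa-like cells each, and the makeup of their spermatids can differ too, so a single cluster held by all groups was compared as well, chosen after the values were seen. In this cluster of 3381 spermatid-like cells Vmn2r7 was at 104, 108 and 105 CPM in T, 87.4, 85.7 and 94 CPM in UC and 113, 80.5 and 78.7 CPM in VC-T. Vmn2r71 was at 25.6, 21.6 and 23.9 CPM in T and 26.1, 22.6 and 25.5 CPM in UC. Vmn2r7 was therefore not lower in T within the cluster, and Vmn2r71 overlapped. Vmn2r69 was at 15.8, 13.9 and 11 CPM in T and at 18.4 to 24.5 CPM in all other libraries, so it was lower there too, without overlap. Late haploid RNA in the cluster was also lower in T, at 7277 to 10010 CPM, and its part in these values was not tested. VC-T 1 had 7605 CPM of it and 23.1 CPM of Vmn2r69.

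**Figure D5:**
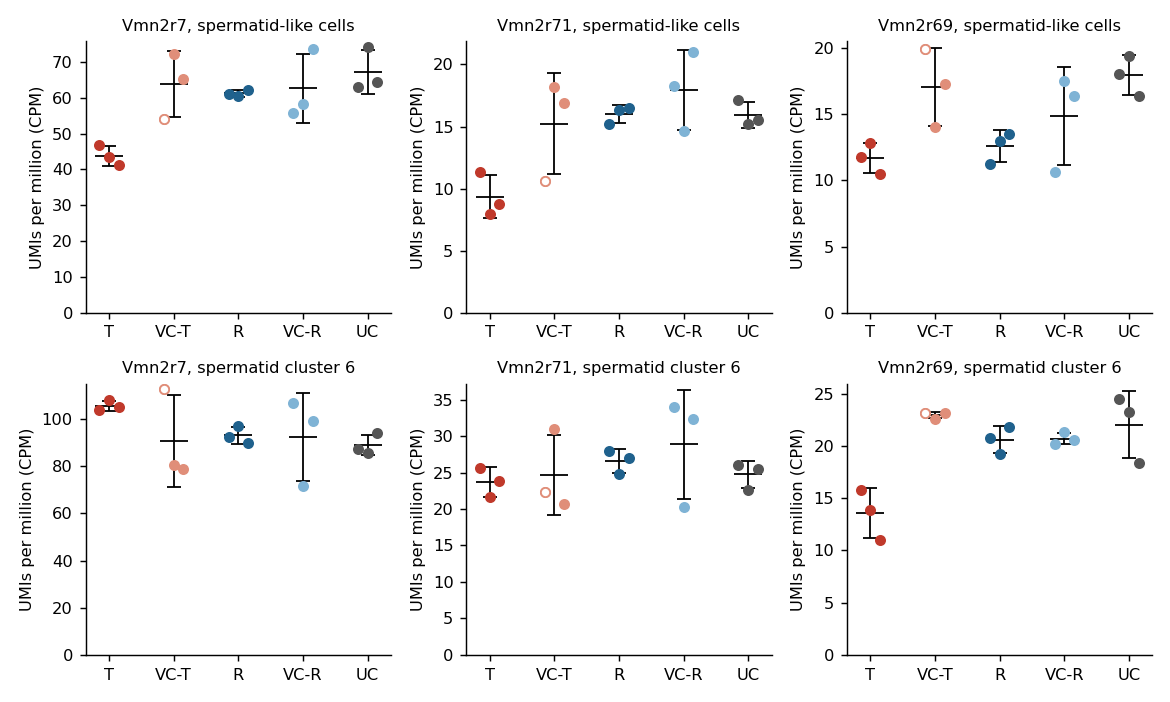
CPM per library (points, with mean and SD as bars, open point VC-T 1) of Vmn2r7, Vmn2r71 and Vmn2r69 in all spermatid-like cells outside the low-UMI clusters (top) and in spermatid cluster 6 (bottom). T lies below UC for all 3 genes in the top row, and only for Vmn2r69 in the bottom row.

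After recovery no member was called in spermatid-like cells outside the low-UMI clusters. Of 10 members tested none was called in R against UC (1.11% of 13838 genes) or in R against VC-R (0% of 14042), and none of 7 in VC-R against UC (0% of 12353). Vmn2r69 was lower in R than in UC by a log2 difference of -0.57 ± 0.14 (edgeR adjusted p = 0.01), under 2-fold, and -0.31 ± 0.23 from VC-R (adjusted p = 1). It was at 11.2, 13 and 13.5 CPM in R, below the 16.4 to 19.4 CPM of UC. Vmn2r7 was at 61.2, 60.4 and 62.2 CPM in R, -0.22 ± 0.09 from UC (adjusted p = 0.12). With the low-UMI clusters included, 4 of 19 members tested were called higher in R against UC, beside 6.63% of 15092 genes, namely Vmn2r18, Vmn2r53, Vmn2r102 and Vmn2r111, and Vmn2r7 turned to 0.53 ± 0.10. With the same clusters none of 20 members was called in R against VC-R, beside 2.16% of 15213 genes.

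Of 25 genes listed for V2R signalling and trafficking, 24 were in the files and 15 had at least 50 UMIs. The other 9 had fewer, among them Omp with 3 and H2-M10.4 with 2 UMIs, and 3 had none. High counts were thus limited to part of the list. The 4 genes of the list with most UMIs were Calr, a chaperone of the endoplasmic reticulum (376 CPM in spermatocyte-like cells), Gnb1 (93.5 CPM), Gnao1 (104 CPM) and Gnai2 (53.8 CPM). The last 3 encode G protein subunits. None of the 7 tested was called in R against UC or in R against VC-R, beside 1.25% and 0% of all genes tested. Of 10 transcription factors of vomeronasal neurons, 7 had at least 50 UMIs, led by Lhx2 at 2.88 CPM in spermatocyte-like cells and 55.7 CPM in spermatids. Ebf2, Ebf1 and Gli3 were at 1.34, 1.04 and 0.6 CPM in spermatocyte-like cells. In R against UC 0 of 2 factors tested were called, beside the same 1.25% of all genes. Of 22 other class C receptors, 16 had at least 50 UMIs. Gprc5b (118 CPM) and Tas1r1 (40.7 CPM), a subunit of the umami taste receptor, were higher in spermatids than in spermatocyte-like cells (8.09 and 2.34 CPM), and Gabbr2 was at 10.8 CPM in spermatocyte-like cells. Of 8 tested in spermatocyte-like cells in R against UC, Tas1r1 was called higher and none lower, with the low-UMI cluster included and beside 1.25% of all genes.

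The genes most like Vmn2r60 across 168 sums of a class or stage in a library were pachytene genes. By Pearson r of log2(CPM + 1) among 15486 genes, the first 10 were G730013B05Rik (r = 0.771), Agtr1b (0.767), Gm34284 (0.765), 1700007F19Rik (0.754), Tgfa (0.746), 4930581F22Rik (0.744), A930002C04Rik (0.734), Gm44140 (0.734), Gm50240 (0.734) and 4921539H07Rik (0.733). The 168 sums share libraries and differ in depth, and r is a description. Among members, Vmn2r111 (0.594) and Vmn2r68 (0.538) came first, and Vmn2r7 was at -0.235. Agtr1b, a type 1 angiotensin II receptor, was at 27.6 CPM in mid-pachytene and 44.4 CPM in late pachytene. In spermatocyte-like cells it was at 19.5 ± 1.54 CPM in T and 32.5 ± 5.87 CPM in UC (SD, n = 3 each), the opposite direction to Vmn2r60. Tgfa, a growth factor that binds the EGF receptor, was at 13, 15.5 and 17.4 CPM in T and 8.11, 8.02 and 7.5 CPM in UC, the same direction as Vmn2r60, with every T library above all others.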

How the data were processed

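The deposited files were UMI count matrices of 10x 3′ libraries, 1 per mouse testis, made by the authors with Cell Ranger (3.0.0 in the submitters' processing notes, 7.0.0 in the file headers) on mm10. Whether intronic reads were counted was not given in the sources used here. The members and gene lists were chosen with earlier results of these data known.

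Barcodes with at least 500 genes, 1000 UMIs and under 30% mitochondrial UMIs were kept, and the 5.4% with the highest Scrublet scores in each library were removed as doublets. Totals were 9673587 to 98724982 UMIs per library. Cells were clustered with Leiden (leidenalg 0.10.2 and scanpy 1.11.5, resolution 1.2) on 2000 variable genes without Vmn2r genes, and clusters were named from fixed markers. UMIs were summed per library and class and tested pairwise with edgeR 4.0.16 (filterByExpr, TMM, quasi-likelihood, Benjamini-Hochberg over all genes tested; called at adjusted p under 0.05 and over 2-fold), with DESeq2 1.42.0, other normalizations, filters, cell sets and left-out libraries as alternatives. The test was checked on simulated counts. The SE given with edgeR log2 differences was the absolute difference divided by the square root of the F statistic of that test. The fits of spermatid-like cells, the low-UMI clusters and the single spermatid cluster were added after seeing the data. Named genes were Vmn2r60, the 10 members with most UMIs, any member that passed, the 10 genes most like Vmn2r60, up to 4 genes with most UMIs per list (1 of them is not reported here), neighbours within 100 kb and members next to 50 UMIs; others named were chosen after their values were seen. Libraries are separate mice, so the tests set group differences against the variation between libraries. With 1 library per mouse, differences between mice and those of preparation or depth cannot be told apart in it.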

Additional observations from a re-analysis of the deposited data

How the results depend on the processing

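In spermatocyte-like cells Vmn2r60 kept its direction in every comparison and setting run. Leaving out 1 library at a time gave log2 differences of 2.45 to 2.87 for T against UC, 1.97 to 2.39 for T against VC-T, 0.16 to 0.61 for R against UC, -0.86 to -0.56 for R against VC-R and 0.92 to 1.32 for VC-R against UC. T against UC was 3.00 without the low-UMI spermatocyte cluster. The members called in R against VC-R ranged from 0 to 1, the 1 being Vmn2r7 without VC-R 1. In spermatid-like cells, including the low-UMI clusters turned Vmn2r7 and Vmn2r71 to 0.53 and 0.96 in R against UC and to 0.66 and 0.75 in R against VC-R. Leaving out 1 library gave -0.20 to 0.06 for Vmn2r7 in R against VC-R, the latter without VC-R 3. For the single spermatid cluster, log2 ratios of mean CPM were taken without VC-T 1, which had 113 CPM of Vmn2r7 there. By this measure Vmn2r7 was 0.25 for T against UC and 0.41 for T against VC-T. The cause of these changes was not tested.

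Genes called in R against UC in spermatocyte-like cells were 168, and 101 with DESeq2, 258 without a filter on low counts, 48 in mid-pachytene cells alone, 97 without the low-UMI cluster, and from 74 (without UC 2) to 229 (without R 1) with 1 library left out, with 88 without UC 1. In spermatids they were 153, and 19 with DESeq2, 240 without the filter, 1001 with the low-UMI clusters, 75 without R 3, 86 without UC 2 and 367 without UC 3. R against VC-R called 95 without the filter in spermatocyte-like cells, and 329 with the low-UMI clusters and 271 without VC-R 1 in spermatids, in place of 0. Replicate numbers did not pair the samples: correlations of same-numbered samples ran from -0.29 to 0.27. With a replicate block Vmn2r60 was 2.67 for T against UC, 2.09 for T against VC-T, 0.41 for R against UC, -0.71 for R against VC-R and 1.10 for VC-R against UC. No member was called with the block in the tested comparisons, and R against VC-R then called 2 genes. Few UMIs per member limit all of these values.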

Other observations

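Among other chemoreceptor families, Vmn1r transcripts were highest in late meiotic cells when low-UMI clusters are set aside, while Olfr transcripts followed the same order as Vmn2r over the classes given here. The 209 Vmn1r genes, type 1 vomeronasal receptors, were at 171 CPM in late pachytene, 179 CPM in diplotene and dividing cells and 103 CPM in spermatid-like cells, all libraries summed. The 1135 Olfr genes, odorant receptors, were at 98.5 CPM in late pachytene, 278 CPM in spermatid-like cells and 905 CPM in the low-UMI spermatids. Of the Vmn1r genes 27 had at least 50 UMIs (12.9%), of the Olfr genes 138 (12.2%), and of the Vmn2r genes 40 (32.8%), beside 67.9% of all genes. None of 15 Taar and 35 Tas2r genes did. No Vmn1r or Olfr gene was called in the R, VC-R and UC comparisons of spermatocyte-like cells. In R against UC 4 Vmn1r and 11 Olfr genes were tested, beside 1.25% of all genes called. In the other 2 comparisons 0% of all genes were called.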
